A study of Mus musculus with 8 samples.

Results

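Cell cycle and mitosis genes were followed in the kidneys of mice that were wild type or homozygous mutant for Pus1, whose product, a pseudouridine synthase, modifies uridines of transfer RNA. The set was a list of 41 gene symbols: 11 genes of DNA replication and nucleotide supply, 5 regulators of the G1/S transition and of origin licensing, and 25 genes that act in or mark G2 and mitosis. A member was measured if a probe matched to it by accession was marked well above background in at least 4 of 8 channels, and its brightest such probe stood for the gene. By this rule 32 of the 41 were measured (10 replication, 4 G1/S and 18 mitotic members), among 24845 items tested, of which 14284 carried a gene symbol.

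Total RNA came from frozen cross sections of whole kidney, 4 from animals labelled wild type for Pus1 and 4 from animals labelled homozygous Pus1 mutants. Strain was given as C57BL/6J with 5 generations of backcrossing for all animals, and age as 14 to 16 weeks; the nature of the Pus1 allele is not stated there. In both groups replicates 1 and 2 were female and replicates 3 and 4 male, so sex and the position of the array on the slide cannot be told apart. Each of 4 two-colour arrays held the mutant and the wild-type sample of one replicate number, the mutant in Cy5 on arrays 1 and 3 and in Cy3 on arrays 2 and 4. A whole-kidney section mixes tubule, vessel, stromal and immune cells, and most cells of the adult kidney do not divide.

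Progress through the cell cycle depends on waves of transcription. Around the G1/S transition, E2F factors turn on genes for origin licensing, the replicative helicase and nucleotide synthesis, whereas the genes of G2 and mitosis are kept off in resting cells by the DREAM complex and turned on later by B-MYB and FOXM1. The late genes are typically bound through a pair of short promoter elements, the cell cycle genes homology region (CHR) and the CCAAT box. In the adult kidney these genes are known as markers of the few tubule, endothelial and immune cells that divide, and of repair after injury.

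Promoter windows from 250 bases before to 50 bases after the annotated start were taken from RefSeq (GRCm38.p6), and 34 of the 41 members had one. A few are printed in the direction of transcription, because their genes stand for the classes described here: Cdc20 (chr4:118437294-118437593, minus strand) has the clearest separation of the genotypes among the mitotic members, Ccnb2 (chr9:70421505-70421804, minus strand) and Plk1 (chr7:122159185-122159484, plus strand) are mitotic genes with the paired elements, Rrm2 (chr12:24708004-24708303, plus strand) is the replication member with the highest genotype ratio, and Mcm6 (chr1:128359656-128359955, minus strand) carries E2F words. Capitals mark matches on either strand to a CHR, written TTTGAA with the variant spelling TTCGAA, to the CCAAT box itself, or to an E2F site, for which the words TTTCCCGC, TTTGGCGC, TTTCGCGC and TTTGCCGC were searched; words may overlap, as in the first E2F block of Mcm6.
Cdc20: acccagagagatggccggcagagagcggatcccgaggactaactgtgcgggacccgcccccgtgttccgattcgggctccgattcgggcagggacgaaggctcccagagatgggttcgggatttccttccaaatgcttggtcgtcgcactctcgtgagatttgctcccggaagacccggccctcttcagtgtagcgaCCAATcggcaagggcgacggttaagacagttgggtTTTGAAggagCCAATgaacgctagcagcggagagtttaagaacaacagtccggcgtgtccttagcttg
Ccnb2: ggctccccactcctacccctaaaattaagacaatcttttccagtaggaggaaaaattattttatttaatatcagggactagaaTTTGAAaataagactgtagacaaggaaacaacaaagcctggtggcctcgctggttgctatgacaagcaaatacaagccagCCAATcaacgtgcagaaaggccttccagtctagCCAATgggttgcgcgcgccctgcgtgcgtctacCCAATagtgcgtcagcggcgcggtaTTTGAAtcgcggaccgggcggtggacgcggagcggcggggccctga
Plk1: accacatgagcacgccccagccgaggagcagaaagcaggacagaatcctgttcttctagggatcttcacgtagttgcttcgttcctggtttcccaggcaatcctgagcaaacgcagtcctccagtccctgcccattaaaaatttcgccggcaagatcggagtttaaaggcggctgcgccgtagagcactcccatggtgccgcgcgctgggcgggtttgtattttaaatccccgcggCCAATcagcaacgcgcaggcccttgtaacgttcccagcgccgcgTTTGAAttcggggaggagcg
Rrm2: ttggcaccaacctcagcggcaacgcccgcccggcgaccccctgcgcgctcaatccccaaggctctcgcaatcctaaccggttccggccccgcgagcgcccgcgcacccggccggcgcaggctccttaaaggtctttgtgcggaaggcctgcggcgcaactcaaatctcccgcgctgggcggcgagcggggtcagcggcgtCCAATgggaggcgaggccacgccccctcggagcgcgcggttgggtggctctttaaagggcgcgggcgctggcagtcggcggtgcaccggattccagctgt
Mcm6: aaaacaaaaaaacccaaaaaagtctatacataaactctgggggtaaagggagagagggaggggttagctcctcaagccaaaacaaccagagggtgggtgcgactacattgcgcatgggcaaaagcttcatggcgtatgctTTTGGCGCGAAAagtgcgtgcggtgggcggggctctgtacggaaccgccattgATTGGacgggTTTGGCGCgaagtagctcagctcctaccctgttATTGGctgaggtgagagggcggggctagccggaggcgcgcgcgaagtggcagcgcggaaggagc

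The words found differed between the mitotic and the replication genes, counted per gene over its windows (Mcm7 and Prc1 had 2 windows each, and 1 of the Mcm7 windows held neither a CHR nor an E2F word). A CHR and a CCAAT box were found together in 15 of 20 mitotic genes (75.0%), in 2 of 10 replication genes and in 0 of 4 G1/S genes, against 8.61% of the 27025 genes with a window. A CHR was present in 21.7% and a CCAAT box in 41.1% of all genes. Of the replication members 8 of 10 held a CCAAT box. An E2F word was found in 5 of 10 replication genes, Cdc6, Mcm3, Mcm5, Mcm6 and Mcm7, in 1 of 4 G1/S genes (Cdt1) and in 1 of 20 mitotic genes (Cdk1), against 2.6% of all genes. These matches describe the letters in the window and do not show binding.

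**Figure D1:**
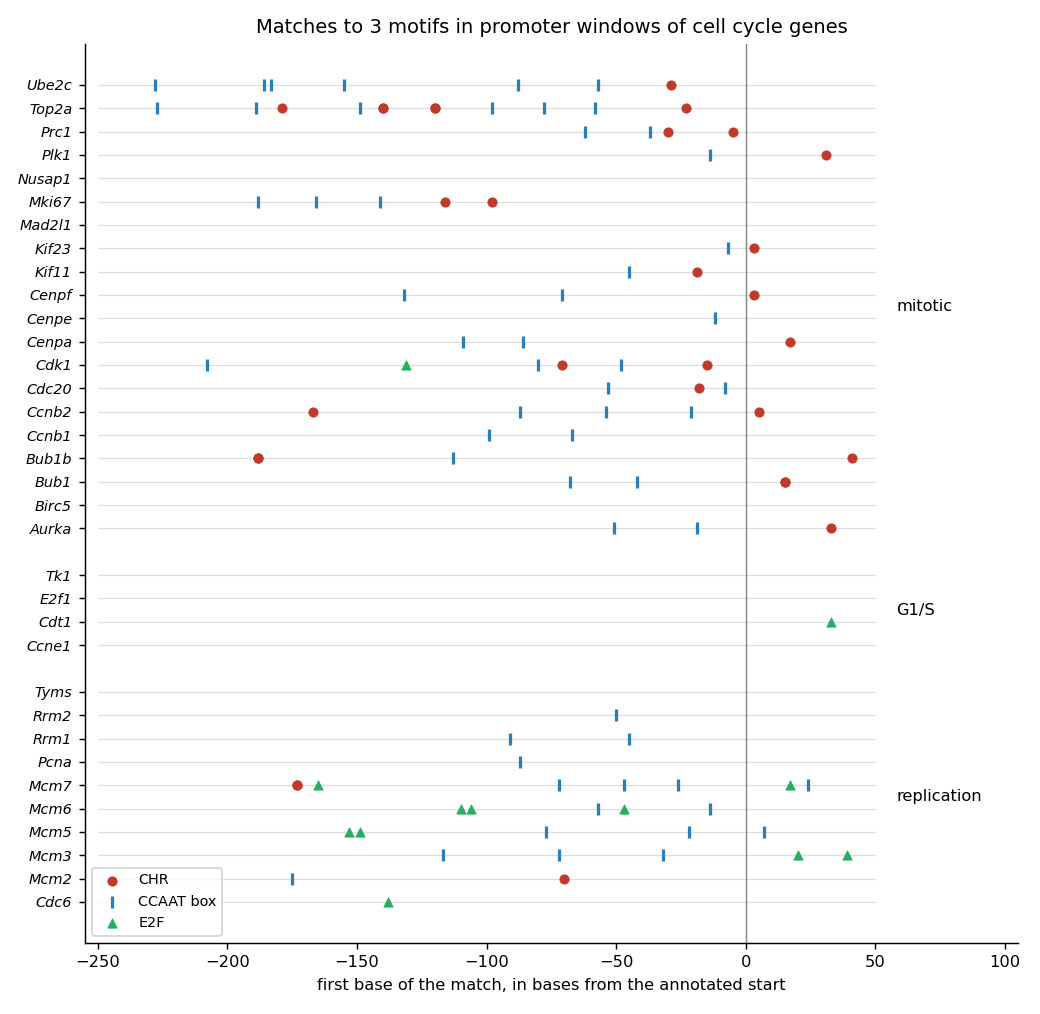
Position of motif matches in the promoter windows of 34 cell cycle genes. The horizontal axis is the distance in bases from the annotated start, and each grey line is one gene. Circles mark a CHR, vertical bars a CCAAT box and triangles an E2F word; circles and bars share a line in 15 of 20 mitotic genes, and triangles fall mostly among the replication genes.

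The genotype labels were borne out by the Pus1 probe. From replicate 1 to replicate 4 its log2 level (normalized probe intensity) in the mutants was 7.46, 7.49, 6.92 and 7.36, against 10.39, 10.34, 10.003 and 10.34 in the wild types. It fell by 2.96 on the log2 scale (SE 0.076, limma adjusted p = 3.5e-04). Across the arrays, 26919 to 30529 probes per sample were above background and sample profiles correlated at 0.954 to 0.995. The log2 ratios of arrays of the same dye orientation correlated at 0.157 and 0.348 and those of opposite orientation at -0.387 to -0.221, a dye component that the balanced design averages out and that was also fitted as a term. Only 4 arrays were available, which limits the precision. The SEs and p-values for genotype rest on the spread of the 4 array ratios left after the dye term, with 2 residual degrees of freedom. The dye contrast does not enter them, so ratios of opposite dye orientation can differ widely beside a small SE. Those for sex rest on the spread of the 4 array means within each sex. In both, the variance of an item was moderated towards that of all items.

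Of the mitotic members, 17 of 18 had a fitted mutant over wild-type ratio above 0 (47.6% of all items did), with a median log2 ratio of 0.42, a median fold of 1.34. Such one-sided counts were not particular to these genes: 0 of 13 urothelial and 8 of 9 lymphocyte markers had a ratio above 0. No single gene passed the adjusted threshold of 0.05: 0 of the 32 measured members were called, against 0.0241% of all items (6 of 24845), and the smallest adjusted p of a member was 0.280. At an unadjusted p under 0.05, 12 mitotic, 3 replication and 0 G1/S members were higher in the mutants and 0 members lower, against 2.5% of items higher. These 15 include Cdk1, which passed the filter largely through the mutants, and 14 remain among the 31 members above background in all channels. A ratio above 0 on all 4 arrays was seen for 10 mitotic members, Cdk1 among them, and 5 replication members, against 4.23% of items. Of the 31 members above background in all channels, 14 were above 0 on all 4 arrays and 30 had a fitted ratio above 0. The median of the 17 mitotic ones was 0.43. In 2 members, Cdc20 and Aurka, every mutant lay above every wild type, against 0.386% of items. In whole-kidney RNA a difference in the number of dividing cells and one in RNA per cell cannot be told apart.

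**Figure D2:**
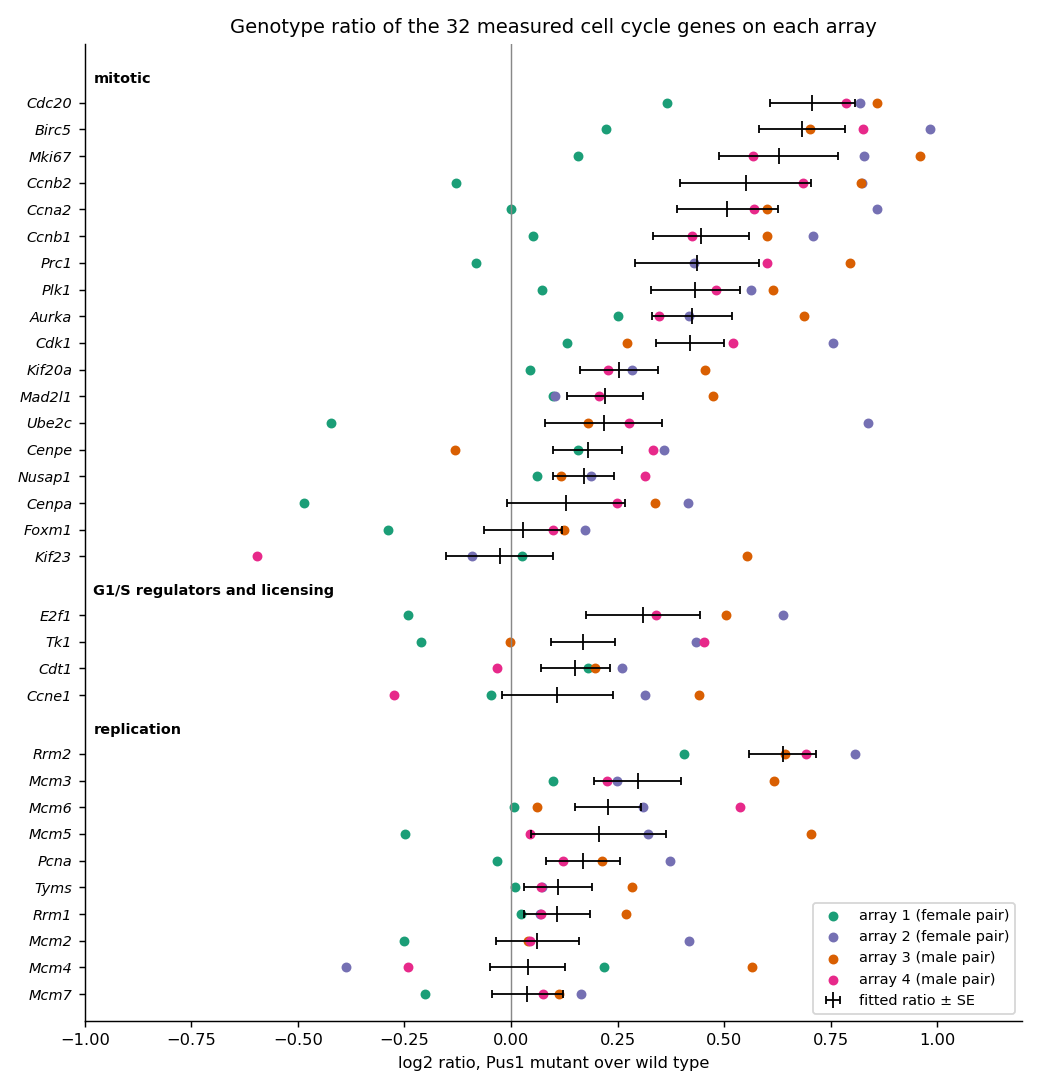
Log2 ratio of mutant over wild type for the 32 measured cell cycle genes, by role. Coloured points are the 4 arrays and black bars the fitted ratio ± SE (n = 4 arrays). The mitotic genes reach 0.71, and the points of array 1 lie at the left for most genes.

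The mitotic cyclins and their kinase are the core of entry into mitosis. Ccnb1, a cyclin that activates Cdk1 at mitotic entry, had log2 levels of 6.98, 7.16, 7.05 and 7.12 in wild type and 7.03, 7.87, 7.65 and 7.54 in mutants. Mutant 1 was within the wild-type range and the other mutants were above it. The log2 ratio was 0.45 ± 0.11 (SE, n = 4 arrays, limma adjusted p = 0.981). Ccnb2, its close relative, had 8.21, 8.11, 7.94 and 7.94 in wild type and 8.08, 8.93, 8.77 and 8.62 in mutants, a log2 ratio of 0.55 ± 0.15 (adjusted p = 0.981). Ccna2, the cyclin of S phase and G2, had 7.76, 7.63, 7.70 and 7.79 in wild type and 7.76, 8.49, 8.30 and 8.36 in mutants, a log2 ratio of 0.51 ± 0.12 (adjusted p = 0.981). For both genes mutant 1 again sat among the wild types while the others stood above them. Cdk1, the mitotic kinase, had 7.13, 6.72, 6.69 and 6.85 in wild type and 7.26, 7.47, 6.96 and 7.37 in mutants. Its probe was above background in 1 of 4 wild types and 4 of 4 mutants, so it was measured largely through the mutants, and the groups overlapped. Its log2 ratio was 0.42 ± 0.080 (adjusted p = 0.859). These ratios moved with the signal used: with Agilent's processed signals and the series matrix they were 0.89 and 0.92 for Ccnb1, 0.83 and 0.86 for Ccnb2, 0.81 and 0.83 for Ccna2, and 1.17 and 1.199 for Cdk1. Ccnb2 had 0.31 without replicate 3.

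Cdc20 and Birc5 had the highest mitotic ratios. Cdc20, the activator that directs the anaphase-promoting complex to its substrates, had log2 levels of 8.34, 8.36, 8.31 and 8.30 in wild type and 8.70, 9.18, 9.17 and 9.09 in mutants. The wild types were nearly equal (SD 0.03, n = 4) and the lowest mutant was still above them. The log2 ratio was 0.71 ± 0.099 (SE, n = 4 arrays), a fold of 1.63, with a limma adjusted p of 0.345. Birc5, or survivin, a subunit of the chromosomal passenger complex, had 8.91, 8.79, 9.10 and 9.19 in wild type and 9.13, 9.77, 9.80 and 10.02 in mutants. Only mutant 1 fell within the wild-type range, and the log2 ratio was 0.68 ± 0.10 (adjusted p = 0.386). A pair of dimmer Birc5 probes, above background in 3 channels each, had log2 ratios of 0.49 and 0.24. Ube2c, the ubiquitin-conjugating enzyme that works with the anaphase-promoting complex, had ratios of -0.42, 0.84, 0.18 and 0.28 on arrays 1 to 4, a spread wider than its mean of 0.22. A second Ube2c probe gave a mean of 0.36.

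Among the mitotic kinases, Aurka, which acts at the centrosome and in spindle assembly, had log2 levels of 7.86, 7.89, 7.43 and 7.69 in wild type and 8.11, 8.30, 8.12 and 8.04 in mutants. The groups did not overlap, and the log2 ratio was 0.43 ± 0.094 (SE, n = 4 arrays, limma adjusted p = 0.981), or 0.67 with processed signals and 0.71 with the series matrix. Plk1, the polo-like kinase needed for mitotic entry and chromosome segregation, had 7.81, 7.96, 7.96 and 8.17 in wild type and 7.88, 8.52, 8.58 and 8.65 in mutants. Mutant 1 was lower than 3 of the wild types, and the log2 ratio was 0.43 ± 0.10 (adjusted p = 0.981). Mki67, the proliferation antigen Ki-67 that coats mitotic chromosomes, had 8.34, 8.43, 8.53 and 9.06 in wild type and 8.50, 9.25, 9.49 and 9.63 in mutants. Wild type 4 was the highest of its group, and the groups overlapped only through mutant 1. The log2 ratio was 0.63 ± 0.14 (adjusted p = 0.981), and a second Mki67 probe, above background in all 8 channels, gave 0.71.

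**Figure D3:**
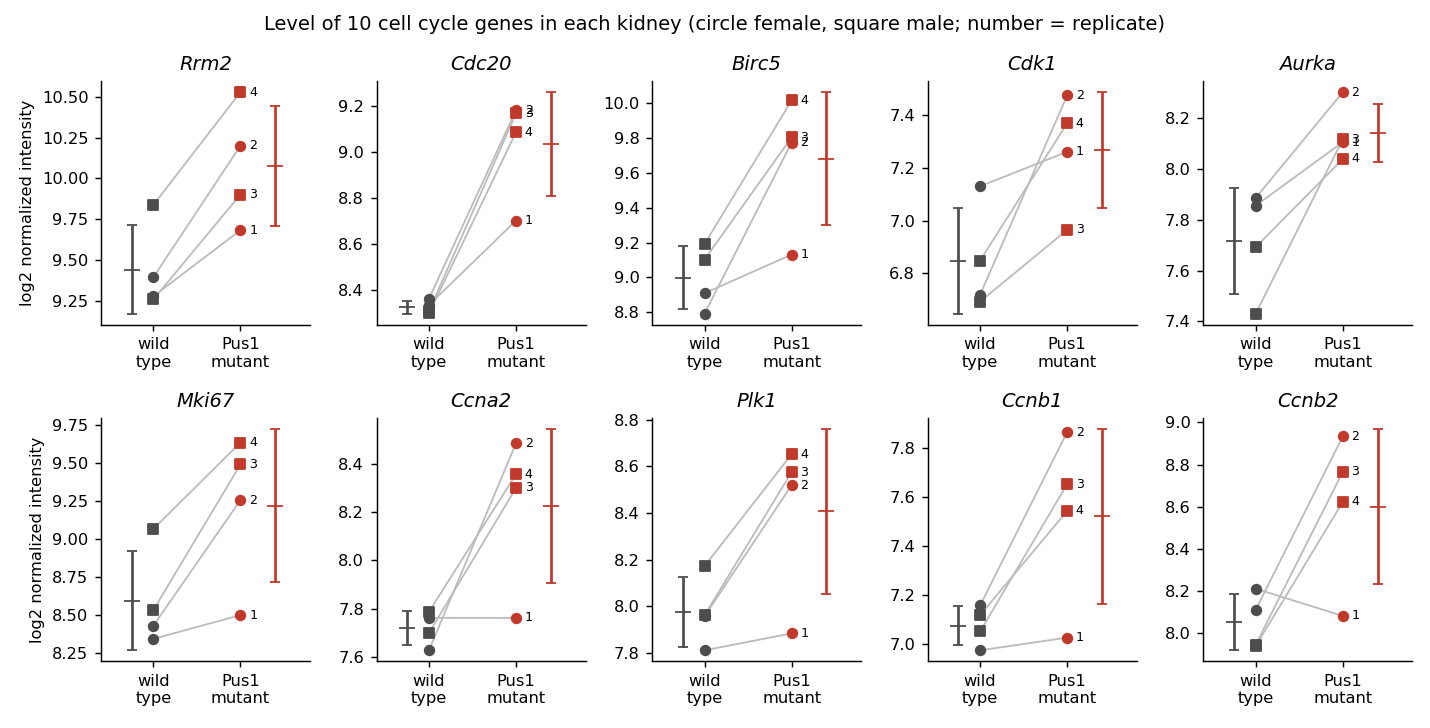
Log2 normalized intensity of the 10 members with the smallest unadjusted p, in each of 4 wild-type (grey) and 4 Pus1 mutant (red) kidneys. Lines join the samples of one array, circles are females and squares males, and side bars give mean ± SD. The panels have their own vertical scales; replicate 1 has the flattest line in most of them.

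The spindle and kinetochore members spread more widely. Prc1, which bundles microtubules of the spindle midzone, had array ratios of -0.08, 0.43, 0.80 and 0.60 and a mean log2 ratio of 0.44 ± 0.15 (SE, n = 4 arrays, limma adjusted p = 0.981). Kif20a and Mad2l1, a cytokinesis kinesin and a spindle checkpoint protein, were above 0 on all 4 arrays, with ratios of 0.25 ± 0.091 and 0.22 ± 0.089. A second Mad2l1 probe, above background in 7 channels, gave 0.05. Cenpe, a kinetochore motor, had 0.18 ± 0.081, Nusap1, a spindle microtubule protein, 0.17 ± 0.072, and Cenpa, the centromeric histone, 0.13 ± 0.14. The lowest were Foxm1, a transcription factor of the mitotic programme, at 0.03 ± 0.092 and Kif23, a kinesin of the midzone, at -0.03 ± 0.13. The Kif23 array ratios were 0.03, -0.09, 0.55 and -0.59 on arrays 1 to 4, so the low mean came from opposed arrays. They were positive where the mutant carried Cy5 and negative where it carried Cy3.

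The replication members had smaller ratios, with Rrm2 apart from the rest. All 10 measured had a fitted ratio above 0, between 0.04 and 0.64, with a median log2 ratio of 0.14 that became 0.11 over the 9 other than Rrm2. Rrm2, the regulated subunit of ribonucleotide reductase, which makes deoxyribonucleotides, had log2 levels of 9.28, 9.39, 9.26 and 9.84 in wild type and 9.68, 10.20, 9.90 and 10.53 in mutants. The mutant was higher on each array, and the groups overlapped through wild type 4, which exceeded mutant 1. The log2 ratio was 0.64 ± 0.079 (SE, n = 4 arrays), a fold of 1.56, with a limma adjusted p of 0.280, the smallest among members. Rrm1, the constitutive large subunit of the same enzyme, had a ratio of 0.11 ± 0.078. Tyms, the thymidylate synthase, had 0.11 ± 0.080, and Pcna, the sliding clamp of the replication fork, had 0.17 ± 0.086.

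The helicase subunits Mcm2 to Mcm7 form one ring, yet their array ratios did not move as one. The median of these 6 genes was -0.10, 0.28, 0.34 and 0.06 on arrays 1 to 4 and 0.13 overall. Mcm3 had the highest fitted ratio, 0.30 ± 0.10, and Mcm6 followed with 0.23 ± 0.077; each was above 0 on all 4 arrays, had an unadjusted p under 0.05 and a limma adjusted p of 0.981. Mcm5 had 0.21 ± 0.16 with array ratios from -0.25 to 0.71, wider than its mean. Mcm2 and Mcm7 had 0.06 ± 0.097 and 0.04 ± 0.084. For Mcm4 the array ratios were 0.22, -0.39, 0.56 and -0.24, positive where the mutant carried Cy5 and negative where it carried Cy3, and the mean was 0.04 ± 0.088.

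None of the G1/S members had an unadjusted p under 0.05. E2f1, an activating E2F factor, had log2 levels of 8.43, 8.04, 8.11 and 8.35 in wild type and 8.19, 8.68, 8.62 and 8.69 in mutants. Mutant 1 lay within the wild-type range and the other mutants above it, with a log2 ratio of 0.31 ± 0.13 (SE, n = 4 arrays, limma adjusted p = 0.981). Tk1, the salvage thymidine kinase, had 0.17 ± 0.076, Cdt1, which loads the helicase at origins, 0.15 ± 0.081, and Ccne1, cyclin E, 0.11 ± 0.13.

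Set side by side on each array, the mitotic median exceeded the replication median every time. The mitotic medians were 0.06, 0.50, 0.58 and 0.39 on arrays 1 to 4 and the replication medians 0.01, 0.28, 0.28 and 0.07. The difference was 0.05, 0.22, 0.30 and 0.31, a mean of 0.22 ± 0.12 (SD, n = 4 arrays), and no test was run on these scores. The medians depended on the signal used and on replicate 3. The mitotic median was 0.69 with Agilent's processed signals and 0.71 with the authors' series matrix, against 0.14 and 0.16 for replication. Without replicate 3 both medians were lower, 0.27 for mitotic and 0.04 for replication members. By promoter, the 10 measured mitotic members with both a CHR and a CCAAT box, Cdk1 among them, had a median of 0.43 (range -0.03 to 0.71). The 5 with a window but without the pair had 0.22 (0.17 to 0.68). The ranges overlapped, and the difference was not tested. Ccna2, Foxm1 and Kif20a, also measured, had no window.

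Array 1 carried the lowest ratio for 27 of the 32 members and the highest for 0. The array holds the samples of replicate 1 only, so the 27 genes are not separate observations. The share of all items lowest on it was not counted. On array 1, 19 members were above 0 (50.6% of items), against 30 on array 2 (46.3% of items), 30 on array 3 (52.6%) and 28 on array 4 (48.5%). The member median was 0.02 on array 1 and 0.39, 0.46 and 0.30 on arrays 2, 3 and 4. Array 3 has the same dye orientation as array 1, and array 2 is the other female pair. The summed mitotic level, the log2 of the sum of normalized intensities over the 18 genes, was 12.17 to 12.28 in wild types and 12.26 to 12.75 in mutants.

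The other 9 members were not measured. Ccne2, Aurkb, Bub1 and Kif11 had no channel above background, Top2a and Cenpf had 1, Cdc6 and Bub1b had 2 and Tpx2 had 3, just short of the limit that Cdk1 passed with 5. Of the measured members, 31 were above background in all 8 channels. The brightest probes of the excluded mitotic genes had mean log2 ratios between -0.13 (Aurkb, the passenger complex kinase) and 0.34 (Tpx2, a spindle assembly factor). Over all 41 members without the filter, 38 had a ratio above 0, the exceptions being Aurkb, Cenpf and Kif23, and the mitotic median was 0.25.

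Other genes of the same machinery gave smaller values, and 0 genes were called in any of these lists. Of 59 further mitotic genes 32 were measured and 27 had a ratio above 0, with a median of 0.16 against -0.01 for all items. At an unadjusted p under 0.05 (2.5% of items higher), Anln, Cdca3, Cdca5, Cenpk and Ncaph were higher in the mutants, as was Pbk, whose probe passed the filter largely through them. Cdca3, a trigger of mitotic entry, had the highest ratio at 0.54 ± 0.15 (SE, n = 4 arrays, limma adjusted p = 0.981) and Cks1b, a small Cdk-binding subunit, the lowest at -0.06 ± 0.12. Pbk, a mitotic kinase, had 0.53 ± 0.075 (adjusted p = 0.348) and was above background in 1 of 4 wild types and 4 of 4 mutants. Of 36 further replication genes 32 were measured and 24 were above 0, with a median of 0.04, from Pold1, the catalytic subunit of polymerase delta, at -0.12 to Chaf1b, a histone chaperone subunit, at 0.21.

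The lists of cell cycle regulators, p53 target genes and quiescence-associated genes had medians from -0.07 to 0.07, against -0.01 for all items. For the G1 cyclins, their kinases and the RB-E2F axis 12 of 23 were above 0, with a median of 0.00, from E2f4, a repressive E2F, at -0.24 ± 0.075 to Ccnd1, cyclin D1, at 0.16 ± 0.13. For the CDK inhibitors 4 of 6 were above 0 (median 0.07), from Cdkn2b at -0.14 ± 0.33 to Cdkn1c at 0.13 ± 0.13. The p53 target and DNA damage genes had 12 of 19 above 0 (median 0.01), from Gadd45g at -0.36 ± 0.24 to Ccng1 at 0.21 ± 0.093. The quiescence-associated genes had 4 of 11 above 0 (median -0.07), from Hes1 at -0.25 ± 0.11 to Dyrk1a at 0.05 ± 0.072. Mcm7, Tyms and Cenpa share chromosome 5 with Pus1, and their ratios lay between 0.04 and 0.13.

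**Figure D4:**
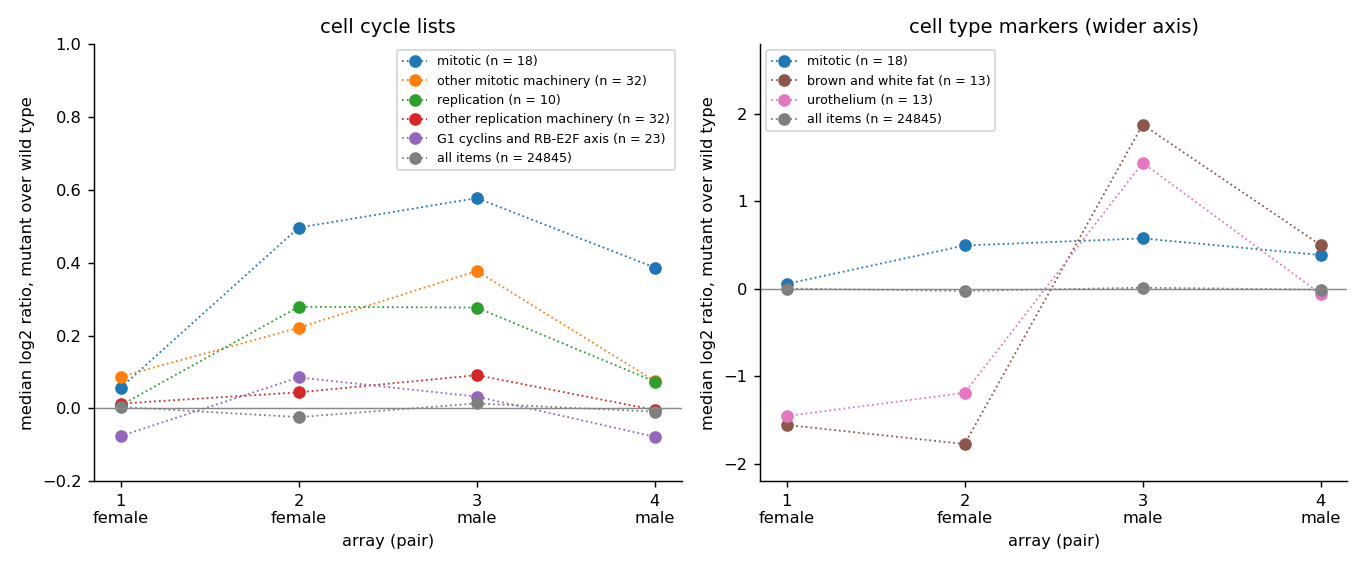
Median log2 ratio of mutant over wild type per array for cell cycle lists (left) and for fat and urothelium markers with the mitotic genes repeated (right, wider axis). The 2 female and 2 male pairs are marked below the axis, and dotted lines only join points of one list. The mitotic medians run from 0.06 to 0.58, while the fat markers run from -1.77 to 1.88.

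Markers of other tissues differed between arrays more than the cell cycle genes. The fat markers (13 of 15 measured) had median ratios of -1.56, -1.77, 1.88 and 0.50 on arrays 1 to 4, and the urothelial markers (13 of 13) had -1.45, -1.19, 1.44 and -0.06. On the same arrays the mitotic medians were 0.06, 0.50, 0.58 and 0.39. Array 3 was the highest for both marker lists and for the mitotic genes. Array 1 was the lowest for the urothelial markers and the mitotic genes, and array 2 for the fat markers. Summed log2 levels were 17.15 to 18.88 in wild types and 17.19 to 18.32 in mutants for fat, where Pck1, which kidney tubules also express, was the brightest marker. They were 14.20 to 14.72 and 13.79 to 14.67 for urothelium, whose brightest marker was Trp63.

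Blood, immune, stromal and kidney markers varied less between arrays than the fat and urothelial markers. The erythroid, fibroblast and kidney medians still ranged more widely than the mitotic medians (0.06 to 0.58), and the lymphocyte, macrophage and endothelial medians less widely. Lymphocyte markers (9 of 13 measured) had median ratios of -0.16, 0.06, 0.09 and 0.19, with summed levels of 12.27 to 13.10 in wild types and 12.37 to 13.38 in mutants. Macrophage markers (11 of 12) had -0.05, 0.38, -0.07 and 0.36, with 15.71 to 17.00 and 15.71 to 17.02. Erythroid markers (8 of 11) had -0.09, -0.97, -0.07 and 0.12, with 19.25 to 20.02 and 18.83 to 19.85. Endothelial markers (10 of 10) had -0.16, 0.14, -0.02 and 0.33, with 15.45 to 16.03 and 15.56 to 15.96. Fibroblast and smooth muscle markers (10 of 10) had -0.67, -0.14, 0.08 and 0.41, with 15.08 to 15.73 and 15.06 to 15.55. Kidney tubule and podocyte markers (13 of 13) had 0.47, -0.15, 0.27 and -0.09, with 19.58 to 20.07 and 19.65 to 20.18. Within the lymphocyte, macrophage, erythroid, endothelial, fibroblast and kidney lists the brightest markers were Cd4, Itgam, Hba-a2, Egfl7, Col1a2 and Kap. Lep, a fat marker, and Cd8a, a lymphocyte marker, were above background in no channel. Fitted ratios were above 0 for 3 of 13 fat, 0 of 13 urothelial, 8 of 9 lymphocyte, 9 of 11 macrophage and 1 of 8 erythroid markers. For endothelial, fibroblast and smooth muscle, and kidney markers the counts were 6 of 10, 1 of 10 and 10 of 13 (47.6% of items). The part of these cell types in the cell cycle ratios was not tested.

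Whether the genotype ratio differed between the sexes was asked with a sex by genotype term. No member was called (0 of 32, against 0.149% of items, 37 of 24845), and the smallest limma adjusted p of a member was 1.00. The ratio was higher in the male pairs for 26 of 32 members (52.3% of items), with a median difference of 0.15. Prc1 alone had an unadjusted p under 0.05 (3.73% of items), with 0.17 in the female and 0.70 in the male pairs, a difference of 0.53 ± 0.22 (SE, 2 arrays per sex). Only 1 residual degree of freedom was left in this fit, and the low array 1 is one of the 2 female pairs.

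Between male and female arrays, without regard to genotype, 3 mitotic members were called higher in males and 4 members higher in females, against 18.9% and 24.3% of all items, shares below the background. Cenpe had the widest difference: its log2 levels were 8.10, 8.10, 8.26 and 8.46 in females and 9.60, 9.07, 9.47 and 9.40 in males. The sexes did not overlap, and males were higher by 1.16 ± 0.13 (SE, 2 arrays per sex, limma adjusted p = 0.0037). Kif23 was higher in males by 0.64 ± 0.095 (adjusted p = 0.0078) and Nusap1 by 0.37 ± 0.10 (adjusted p = 0.037). Mki67 had a male minus female difference of 0.55 ± 0.19 and missed the threshold (adjusted p = 0.066).

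Higher in females were Ube2c, with a male minus female difference of -0.65 ± 0.10 (SE, 2 arrays per sex, limma adjusted p = 0.0088), Mad2l1 with -0.51 ± 0.076 (adjusted p = 0.0078), Pcna with -0.46 ± 0.093 (adjusted p = 0.016) and Mcm3 with -0.37 ± 0.092 (adjusted p = 0.030). Averaging the kept probes of Mad2l1 gave -0.19 (adjusted p = 0.202). The median member difference was 0.02, against -0.09 for all items. Most of these calls were lost when a female pair was left out: 1 of 32 members was called without replicate 1 and 2 without replicate 2. The differences themselves were -0.67 and -0.63 for Ube2c, -0.51 and -0.50 for Mad2l1 and 0.54 and 0.73 for Kif23 without replicates 1 and 2. Cenpe passed under all 14 alternatives tried. Markers of other cell types also differed by sex: 6 of 9 lymphocyte, 8 of 11 macrophage, 5 of 8 erythroid and 6 of 10 endothelial markers were called higher in females (24.3% of items). The macrophage list also had 1 marker called higher in males (18.9% of items), and its summed level was 15.71 to 15.84 in females and 16.71 to 17.02 in males. That sum rests largely on Itgam, the brightest marker, with a mean log2 level of 15.31 in wild types. The median log2 level over the list ran the other way, 8.96 to 9.60 in females and 8.26 to 8.65 in males. The part of these cell types in the sex differences of cell cycle genes was not tested.

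**Figure D5:**
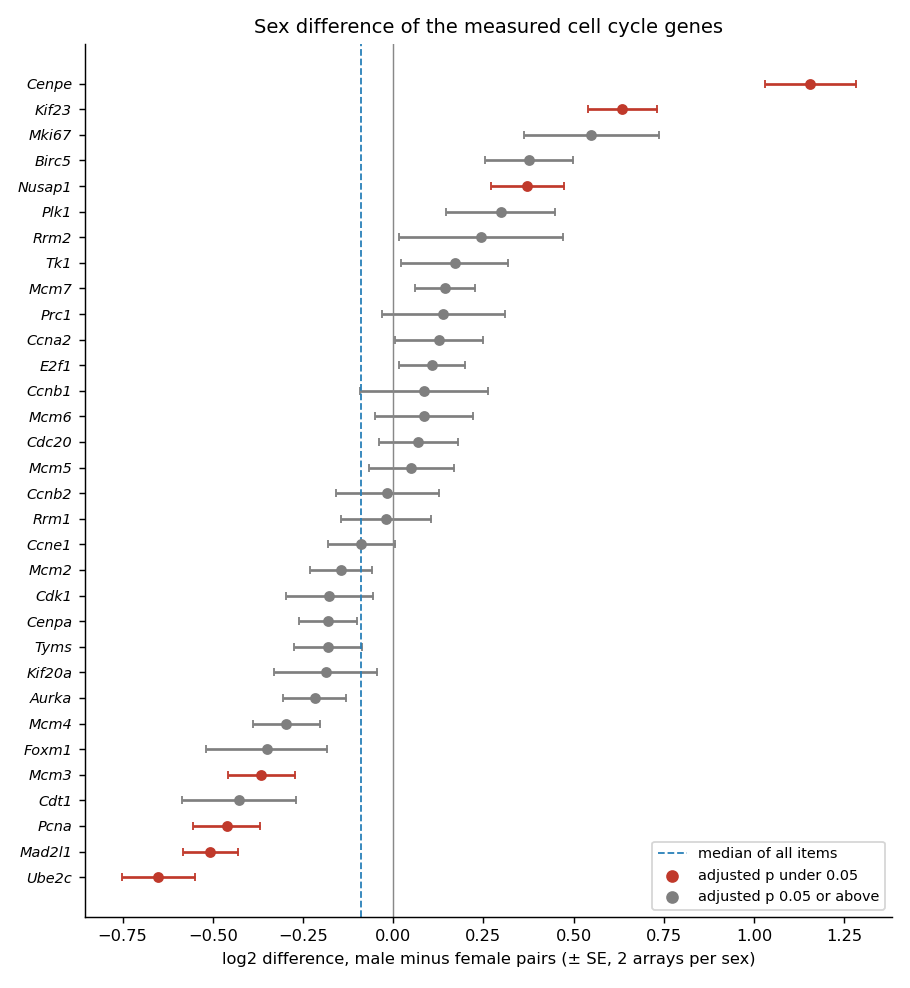
Male minus female log2 difference of the 32 measured cell cycle genes ± SE (2 arrays per sex). Red points have an adjusted p under 0.05 and the dashed line is the median of all items. Cenpe stands at 1.16, and 4 genes lie on the female side among the red points.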

How the data were processed

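RNA of 8 kidneys (200 ng each) was measured on 4 two-colour Agilent arrays. Per the file headers, the deposited intensity values include spot and local background medians over pixels, used here, and processed signals already corrected for background and dye, used as an alternative; they were written by version 10.7.3.1 of Agilent Feature Extraction, which also set the marks for spots above background. The sources name no test by the authors. The deposited series matrix holds log2 values (slope 0.965 against log2 processed signals), each probe centred on its median over the 8 samples, and it served as an alternative.

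Background was removed with normexp (offset 50) in limma 3.58.1 (R 4.3.3), followed by loess within arrays and Aquantile between arrays. Controls (3671 of 62976 spots) and 191 to 252 outlier spots per array were left out. Probes were named by accession through RefSeq (27509 of 55681 probes, 20887 genes). Per-array log2 ratios were fitted with limma, with dye as a term and Benjamini-Hochberg adjustment over 24845 items; sex by genotype used the same ratios, and sex used array means. All p-values come from these fits. They were also run on simulated data with independent genes and variances drawn from limma's own prior. Such data cannot test the effect of correlated genes or of tissue mixture that differs between arrays.

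Same-numbered samples shared an array. Their deviations correlated at 0.690 to 0.784, which also reflects sex, since each pair is of one sex. Wild types and mutants of the same sex on different arrays correlated at 0.621 to 0.795, so these values show no part of the shared array beyond sex. Members and lists were chosen with earlier results of these data known. All members could be named, with full statistics for the 10 smallest unadjusted p and the 5 widest sex differences; each pathway list gave its highest and lowest gene, and each marker list its brightest marker. Alternatives covered background correction, offset, normalization, filter, probe choice, dye term, pairing and leaving out replicates.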

Additional observations from a re-analysis of the deposited data

Results flagged for a closer look

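In 3 of 64 groups of 4 levels tested (32 genes in each genotype), one animal stood far from the others by Dixon's criterion. Chance alone gives about 1 in 20 such groups, so the count is near the chance share. In each case the animal was mutant replicate 1, a female, on the low side. The log2 level of Mcm6, a helicase subunit, was 12.001 in that animal and 12.32 to 12.38 in the other mutants. That of E2f1, an activating E2F factor, was 8.19 against 8.62 to 8.69. That of Prc1, of the spindle midzone, was 7.46 against 8.16 to 8.27. Without replicate 1, 32 of 32 members had a genotype ratio above 0 and the mitotic median was 0.50. Array 1 held the lowest ratio for 27 of the 32 members, so leaving it out raises these values by construction. They are therefore no separate support for a genotype difference. No member had ratios of opposite sign in the female and male pairs with every array of a sex agreeing.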

How the results depend on the processing

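No member was called for genotype under any of the 14 alternatives, and the member median stayed between 0.15 and 0.35. Genotype calls over all items numbered 6, against 0 with Agilent's processed signals or the series matrix, 10 with median normalization and 1 to 6 when one replicate was left out. With the processed signals or the series matrix Pus1 itself was not called, so those settings say little about the calls of members. Without the replicate block, which ignores the pairing on arrays, 4 items were called, and no member's call differed. Without the dye term 4 items were called, and 13 members, against 15, were higher at an unadjusted p under 0.05. The limma adjusted p was then 0.576 for Rrm2 and for Cdc20, against 0.280 and 0.345. The mitotic median of 0.42 was 0.69 with the processed signals and 0.71 with the series matrix; among the 10 genes given in full, Aurka, Ccna2, Ccnb1, Ccnb2 and Cdk1 moved by over 1.5 times. Leaving out replicates gave 0.27 to 0.50 for the mitotic and 0.04 to 0.20 for the replication median, and 24 to 32 members above 0. Sex by genotype calls numbered 37, against 0 (processed signals, series matrix), 10 (offset 16), 90 (no filter) and 228 (median normalization); leaving out a replicate was not run, as no residual degrees of freedom remain. Sex calls over all items ran from 2746 to 9459 without one replicate, against 10725, and member calls from 1 to 8, against 7. The median sex difference of members, 0.02, changed sign to -0.0282 with processed signals, -0.0208 without a filter, -0.0242 with the series matrix and -0.0194 without Aquantile, and ran from -0.105 to 0.0595 without one replicate. The causes were not tested. Signal over background was the limit for 9 of 41 members, too dim to measure.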
